A study of Homo sapiens with 2 samples.

Results

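Splicing factor genes were examined in the human liver cancer line HepG2, a hepatoma, after exposure to nanoparticles of amorphous silica (SiO2-NP). The genes were taken by symbol from 4 families: hnRNP proteins (HNRNP followed by a letter), SR proteins (SRSF), proteins of the small nuclear ribonucleoproteins or snRNPs (SNRP), and the subunits of splicing factors SF3A and SF3B. This gave 53 of the 18417 genes that the array named, comprising 20 hnRNP, 12 SR, 12 snRNP and 9 SF3A or SF3B symbols. The SiO2-NP group was 1 array of cells given 100 mg/L SiO2-NP for 24 h, and the control group was 1 array of HepG2 cells without a stated exposure. Both cultures were kept in MEM, and both arrays held total RNA amplified with a whole-transcript kit. The labels give no replicate cultures and no particle size.

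Pre-mRNA splicing is carried out by the spliceosome, which is assembled from snRNPs. Each snRNP has a small nuclear RNA (snRNA) and proteins, and most of these RNAs are held by a common ring of Sm proteins that the SMN complex loads in the cytoplasm. SF3A and SF3B are parts of the U2 snRNP that grip the branch point, while SR and hnRNP proteins bind exons and introns and tune which splice sites are used. Many SR and hnRNP genes limit their own transcripts through alternative exons that expose them to nonsense-mediated decay.

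Each group held 1 array, so no value below has a replicate error, no test could be run, and the values describe 2 arrays rather than 2 conditions. Values are log2 intensities, and a difference is the SiO2-NP value minus the control value. In bulk RNA, fewer cells holding a transcript and less of it per cell cannot be told apart. A gene counted as expressed if the mean of its 2 values was at or above 7.26, the median over all genes. This filter on level does not show that a transcript was detected. It kept 9209 genes and 46 of the 53 splicing factors. Among the expressed genes the median difference was -0.03, and the central 95% of differences lay between -0.37 and 0.28. All 10 measured hepatocyte markers passed the filter, among them ALB and AFP, against 1 of 9 fibroblast markers, 3 of 8 leukocyte markers and 0 of 8 endothelial markers. The leukocyte marker LYZ read 13.27 in the SiO2-NP array and 13.23 in the control array, above AFP at 13.04 and 13.06. CD68 and NKG7, the other leukocyte markers that passed, read lower than AFP.

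The splicing factors as a whole differed little between the arrays. Of the 46 expressed splicing factors, 36 were below the control and 10 above it, where 59.8% of all expressed genes were below. Their median difference was -0.04, beside -0.03 for all expressed genes. None reached 1.5-fold in either direction, a fold that 0.25% of expressed genes reached downward and 0.141% upward. At 1.2-fold, 3 were lower, namely SNRPG, SNRPF and SRSF9, and 0 were higher, where 7.53% of expressed genes were lower and 2.99% higher by that much. A share of 3 in 46 is near that background. Of these 3, SNRPF passed the level filter only through its control value. The differences of 30 of the 46 lay within 0.1 of zero on the log2 scale, as did those of 51.6% of expressed genes.

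Among the families, the snRNP proteins had the lowest median. The 10 expressed snRNP proteins had a median difference of -0.14, with all 10 below the control, where 59.8% of all expressed genes were below. SNRPF, 1 of the 10, passed the level filter only through its control value. After centring on the median, centring on a running median by level, or quantile normalization, 7 of the 10 were below, SNRPB, SNRPD3 and SNRPA having turned to slightly positive values, and the median was -0.11 under each. Of all expressed genes, about as many were below as above after either centring, and 46.4% were below after quantile normalization. The 16 expressed hnRNP proteins had a median of -0.05 with 12 below, the 11 SR proteins -0.03 with 7 below, and the 9 SF3A and SF3B subunits -0.03 with 7 below. After quantile normalization these 3 medians became 0.0067, 0.015 and 0.019, and that of the subunits was also positive, at 0.0024, after centring on a running median.

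**Figure D1:**
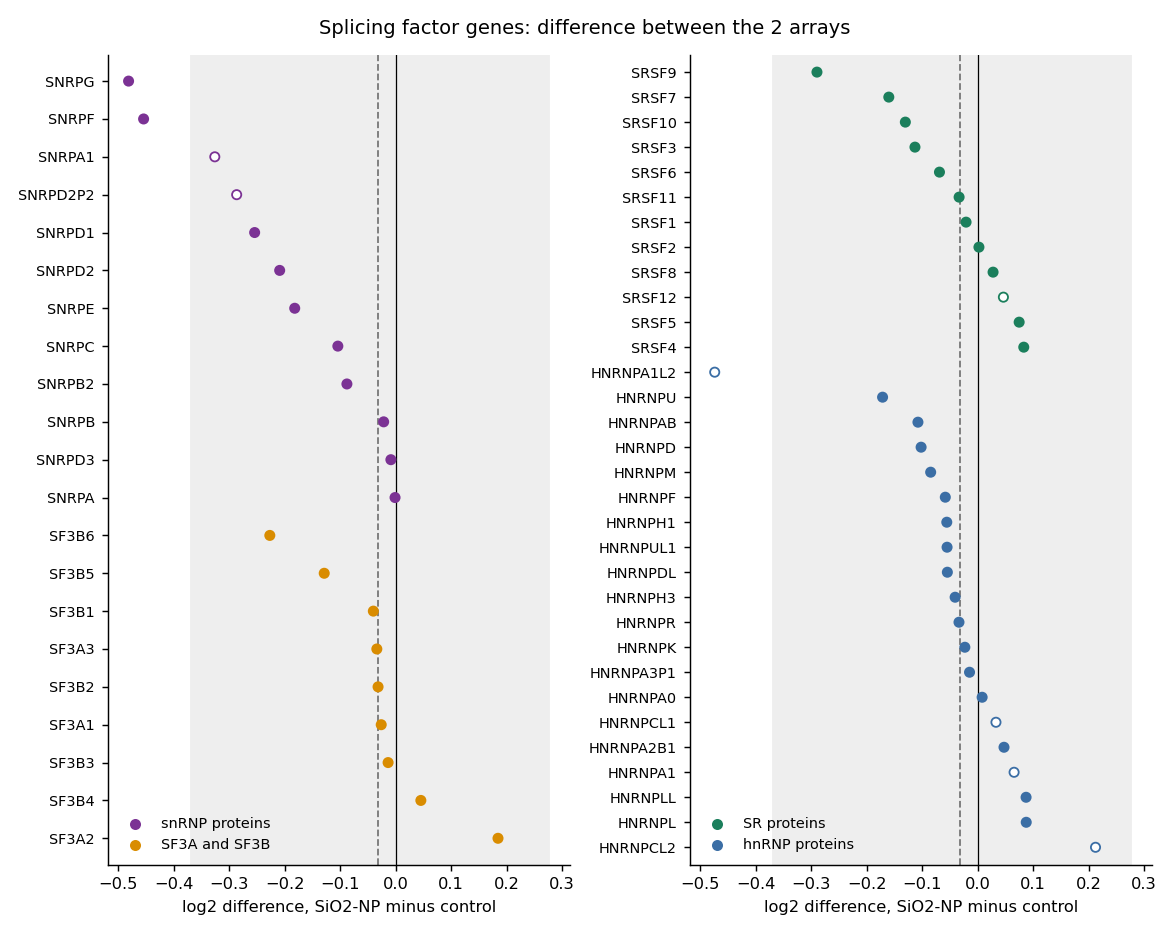
Log2 difference (SiO2-NP minus control) of all 53 splicing factor genes, with 1 point a gene, sorted within each family and coloured by family; open points are genes under the level filter, the grey band is the central 95% of the 9209 expressed genes (-0.37 to 0.28) and the dashed line is their median (-0.03). SNRPG and SNRPF are the filled points left of the band, and most other points lie near the dashed line.

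**Figure D2:**
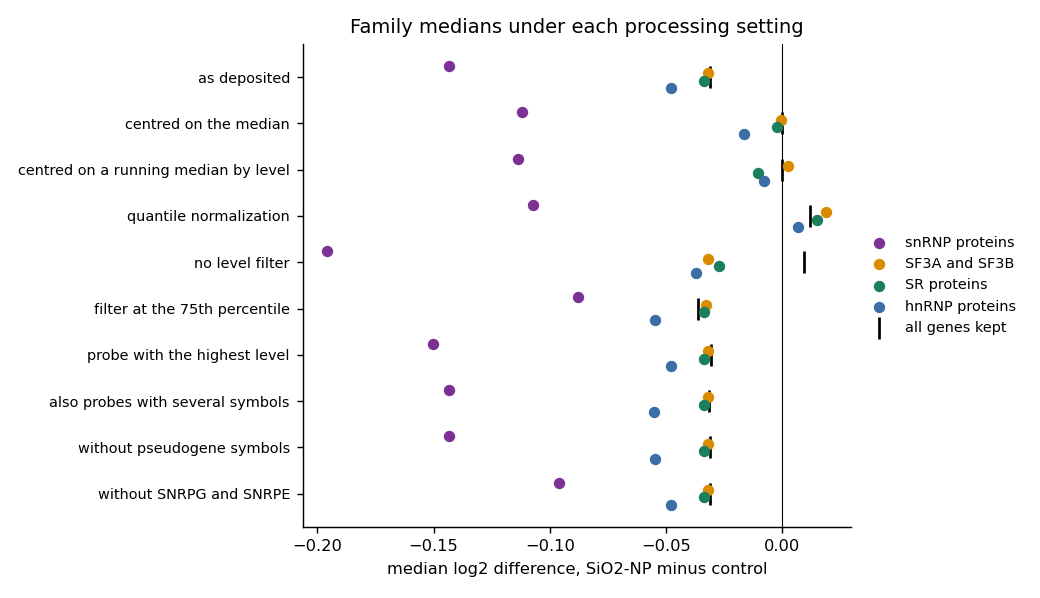
Median log2 difference (SiO2-NP minus control) of each splicing factor family (coloured points) and of all genes kept (black ticks), with the deposited values in the top row and 1 other processing setting in each row under it. The snRNP median lies left of the tick in all 10 rows, between -0.20 and -0.09, and the other 3 families stay close to it except in the row without the level filter.

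The Sm proteins form a ring of 7 subunits around the snRNA, and their genes divided into 5 with differences of -0.18 or below and 2 near zero. The cut of -0.18 is the difference of SNRPE, so it was read from these same values. Among all expressed genes, 16.03% had a difference lower than that of SNRPE. SNRPG, which encodes Sm protein G, had a log2 intensity of 8.18 in the SiO2-NP array and 8.66 in the control array, a difference of -0.48 or 1.40-fold lower. That value is the mean of 2 probes that did not match in size. The probe annotated with 9 accessions read 9.95 in the SiO2-NP array and 10.78 in the control array, 1.78-fold lower. The probe annotated with 1 accession read 6.40 in the SiO2-NP array and 6.53 in the control array, 1.09-fold lower. Both SNRPG probes thus read lower in the exposed cells, by very different amounts, and the choice of probe sets whether SNRPG passes 1.5-fold.

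SNRPF, for Sm protein F, read 7.10 in the SiO2-NP array and 7.55 in the control array, 1.37-fold lower. Its mean lay just above the level filter, so that its SiO2-NP value is under it and its control value above it. SNRPD1, for Sm protein D1, read 8.84 in the SiO2-NP array and 9.10 in the control array, a difference of -0.25. SNRPD2, for its partner D2, read 8.96 in the SiO2-NP array and 9.17 in the control array, a difference of -0.21. SNRPE, for Sm protein E, read 7.35 in the SiO2-NP array and 7.53 in the control array, a difference of -0.18. That value is the mean of 2 probes. The first read 9.71 in the SiO2-NP array and 9.91 in the control array, and the second, far under the level filter, read 4.99 in the SiO2-NP array and 5.16 in the control array. The 3 subunits that form one part of the ring together, E, F and G, and the pair D1 and D2 were thus all lower in the SiO2-NP array. This division by ring part was read from the same values and was not tested.

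The remaining pair of the ring, SNRPB and SNRPD3, which encode Sm proteins B and D3, hardly differed. SNRPB read 11.49 in the SiO2-NP array and 11.51 in the control array. SNRPD3 read 9.57 in the SiO2-NP array and 9.58 in the control array. The 7 Sm genes together had a median difference of -0.21, with 7 of 7 below the control as deposited and 5 of 7 after either centring or quantile normalization. Of all expressed genes, 59.8% were below as deposited, about as many were below as above after centring, and 46.4% were below after quantile normalization. SNRPB shares its coding sequence closely with SNRPN, the imprinted gene for Sm protein N, which had no probe of its own here.

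The promoters of 3 Sm genes are shown as examples of a low (SNRPF), a middle (SNRPD2) and a near-zero (SNRPB) difference in the ring. Each is the run of 150 bases before the start site in RefSeq's table (GRCh38.p14), written 5′ to 3′ on the gene's own strand. Capitals mark matches on either strand to the motifs searched, which were CCGGAAG (bound by ETS factors), CCAAT (the CCAAT box) and GGGCGG (the GC box). The window of SNRPF lies at chr12:95858802-95858951 on the plus strand, that of SNRPD2 at chr19:45692317-45692466 on the minus strand and that of SNRPB at chr20:2470790-2470939 on the minus strand.
SNRPF: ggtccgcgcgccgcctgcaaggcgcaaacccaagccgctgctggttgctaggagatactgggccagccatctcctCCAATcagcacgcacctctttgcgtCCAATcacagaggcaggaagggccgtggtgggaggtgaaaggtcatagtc
SNRPD2: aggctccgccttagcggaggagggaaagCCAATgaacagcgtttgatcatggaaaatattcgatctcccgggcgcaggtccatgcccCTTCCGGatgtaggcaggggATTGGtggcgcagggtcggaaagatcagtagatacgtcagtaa
SNRPB: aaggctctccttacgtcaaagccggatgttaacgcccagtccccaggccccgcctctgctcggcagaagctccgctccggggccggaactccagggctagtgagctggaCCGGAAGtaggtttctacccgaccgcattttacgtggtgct

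In these windows SNRPF held 2 CCAAT matches and no CCGGAAG, SNRPD2 held both motifs, and SNRPB held 1 CCGGAAG match. No matches overlapped there. Over windows of 300 bases (250 before the start and 50 after, 1 window a gene, its most upstream start), CCGGAAG was found in 4 of the 6 Sm genes with a window. It was found in 38.3% of the 47 splicing factor promoters in the table, in 20.8% of 7530 promoters of expressed genes and in 10.6% of all 27305 promoters. Those 47 were not limited to expressed genes, since they include HNRNPA1L2, HNRNPCL1, HNRNPCL2, SNRPA1 and SRSF12, all under the level filter. The GC box was found in 57.4% of the splicing factor promoters, against 72.0% of those of expressed genes and 44.5% of all. The CCAAT box was found in 40.4%, 37.3% and 35.7% of the same 3 sets. SNRPG, SNRPE, SNRPD2 and SNRPB held CCGGAAG, and SNRPF and SNRPD3 did not. Whether the motif bears on the differences was not tested.

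Of the genes for proteins of single snRNPs, SNRPC, SNRPA and SNRPB2 passed the level filter and SNRPA1 did not. SNRPC, for the U1 protein that helps U1 hold the 5′ splice site, read 9.97 in the SiO2-NP array and 10.07 in the control array, a difference of -0.10. SNRPA, for the U1 protein that binds a loop of U1 snRNA, read 10.74 in both arrays. SNRPB2, for the U2 protein B″, read 10.75 in the SiO2-NP array and 10.84 in the control array, a difference of -0.09. Its partner SNRPA1, for the U2 protein A′, was under the level filter, with 6.35 in the SiO2-NP array and 6.68 in the control array, a difference of -0.33. The pseudogene SNRPD2P2 was also under the filter, with a difference of -0.29, and its probe may read SNRPD2 transcripts.

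**Figure D3:**
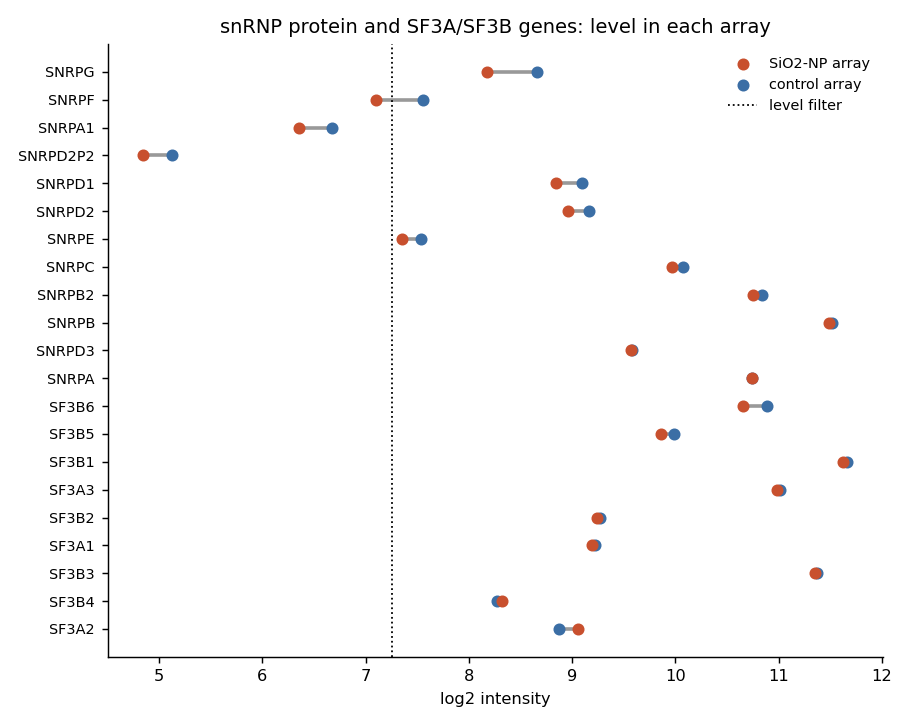
Log2 intensity of the 12 snRNP protein genes and the 9 SF3A and SF3B genes in the SiO2-NP array (red) and the control array (blue), joined by a grey bar, with the level filter of 7.26 as a dotted line. The bars are longest for SNRPG and SNRPF, both with the SiO2-NP point on the left, and SF3A2 has its SiO2-NP point on the right.

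Within the SF3B complex the largest subunits were level while 3 small ones, SF3B6, SF3B5 and PHF5A, were lower. SF3B1, the scaffold that encloses the branch point, differed by -0.04, SF3B2 by -0.03 and SF3B3 by -0.01, and all 3 were slightly positive after quantile normalization. SF3B6, which encodes the small subunit p14 that contacts the branch point region, read 10.66 in the SiO2-NP array and 10.88 in the control array, 1.17-fold lower. SF3B5, another small subunit, read 9.86 in the SiO2-NP array and 9.99 in the control array, a difference of -0.13. PHF5A, the remaining small subunit, does not carry an SF3B symbol. It read 8.98 in the SiO2-NP array and 9.27 in the control array, a difference of -0.29. SF3B4, which contacts the pre-mRNA near the branch point, was 0.05 above the control.

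The 3 SF3A subunits differed in direction. SF3A2 had the largest positive difference of the expressed splicing factors, with 9.06 in the SiO2-NP array and 8.88 in the control array, 1.14-fold higher. A difference above that of SF3A2 was seen in few expressed genes, since 93.2% had a lower one. SF3A1 differed by -0.03 and SF3A3 by -0.03, both close to the median of all expressed genes.

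Among the SR proteins, which carry arginine-serine repeats and mostly promote exon inclusion, SRSF9 stood lowest. SRSF9 read 9.10 in the SiO2-NP array and 9.39 in the control array, 1.22-fold lower, and 5.84% of expressed genes had a lower difference. Its difference was -0.26 with median centring, -0.25 with centring by level and -0.24 after quantile normalization, each short of 1.2-fold. SRSF7 and SRSF3, related proteins that also act in mRNA export, differed by -0.16 and -0.11. SRSF7 read 9.43 in the SiO2-NP array and 9.59 in the control array. SRSF3 read 10.51 in the SiO2-NP array and 10.62 in the control array. SRSF10, known as a splicing repressor when it loses its phosphates in heat shock, had 2 probes with differences of -0.13 each.

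The other SR genes lay closer to zero or above it. SRSF1 and SRSF2, the classical SR proteins ASF/SF2 and SC35, differed by -0.02 and 0.0022. SRSF6 differed by -0.07, SRSF11 by -0.03 and SRSF8 by 0.03. SRSF4 read 9.15 in the SiO2-NP array and 9.07 in the control array, a difference of 0.08. SRSF5 read 9.48 in the SiO2-NP array and 9.41 in the control array, a difference of 0.07. SRSF12, an inhibitor of splicing related to SRSF10, was under the level filter, with a difference of 0.05. The SR genes thus spread on both sides of the median of all expressed genes.

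The hnRNP proteins, which coat nascent transcripts and often repress exons, showed the narrowest range, from -0.17 to 0.09 over the 16 expressed symbols. HNRNPU, a nuclear scaffold protein that binds chromatin-associated RNA, was the lowest of them, with 10.14 in the SiO2-NP array and 10.31 in the control array, 1.13-fold lower. The related HNRNPUL1 differed by -0.06. HNRNPAB, of the A/B type, read 11.37 in the SiO2-NP array and 11.48 in the control array. HNRNPD (AUF1), which binds AU-rich elements and promotes mRNA decay, read 11.59 in the SiO2-NP array and 11.70 in the control array. Both differences, -0.11 and -0.10, were within the central 95% of expressed genes.

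Several hnRNP genes were close to the median of all genes. HNRNPM, which acts in alternative splicing, differed by -0.08. The related G-run binding proteins HNRNPF, HNRNPH1 and HNRNPH3 differed by -0.06, -0.06 and -0.04. HNRNPDL, HNRNPR and HNRNPK, the last a poly(C)-binding protein, differed by -0.05, -0.03 and -0.02. HNRNPA0, which binds AU-rich elements, was level at 0.0080.

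The positive side of the hnRNP range held HNRNPL, HNRNPLL and HNRNPA2B1. HNRNPL, which binds CA repeats, read 11.06 in the SiO2-NP array and 10.97 in the control array. Its paralogue HNRNPLL, known for its part in CD45 splicing in lymphocytes, read 9.39 in the SiO2-NP array and 9.31 in the control array. Both differed by 0.09. HNRNPA2B1 differed by 0.05, with 10.93 in the SiO2-NP array and 10.88 in the control array.

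Gene copies limit what can be said of some hnRNP genes. HNRNPC, HNRNPA3, HNRNPH2 and HNRNPUL2 had no probe that was theirs alone and have no value here. HNRNPA1 kept 1 probe, annotated with 1 accession and under the level filter, which read 6.44 in the SiO2-NP array and 6.38 in the control array. HNRNPA1L2, a retrotransposed copy of HNRNPA1, was likewise under the filter and read 6.49 in the SiO2-NP array and 6.96 in the control array, a difference of -0.47. HNRNPCL1 and HNRNPCL2, copies of HNRNPC, were under the filter with differences of 0.03 and 0.21. The pseudogene HNRNPA3P1, above the filter, differed by -0.01. Probes of such copies may read the parent gene.

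The 7 splicing factors under the level filter were HNRNPA1L2, HNRNPA1, HNRNPCL1, HNRNPCL2, SNRPA1, SNRPD2P2 and SRSF12. With them included, 39 of 53 were below the control, where 47.6% of all named genes were, and 6 were lower by 1.2-fold, where 6.47% of all named genes were.

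The rest of the splicing pathway was read from 10 gene lists, some of which share genes. Their counts stand beside 59.8% of all expressed genes below the control as deposited. After either centring about as many expressed genes were below as above, and after quantile normalization 46.4% were below. The LSM proteins, which form the ring of U6 snRNA and related rings, were below the control in 9 of 9 expressed genes, or 8 of 9 after either centring or quantile normalization, with a median difference of -0.20. LSM5 read 8.91 in the SiO2-NP array and 9.34 in the control array, a difference of -0.44. LSM10, of the U7 snRNP that processes histone mRNA, differed by -0.27. LSM4, at -0.0002, was level.

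The SMN complex, which loads Sm rings onto snRNA, was below the control in 7 of 7 expressed genes under each of these scalings. As deposited its median was -0.21, and 59.8% of all expressed genes were below. GEMIN2, which holds the open Sm ring before it closes, read 7.37 in the SiO2-NP array and 7.85 in the control array, a difference of -0.48. GEMIN6 read 7.13 in the SiO2-NP array and 7.40 in the control array, a difference of -0.27, and it passed the level filter only through its control value. SMN1 and SMN2 had no probe of their own.

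The PRPF proteins were below the control in 9 of 10 expressed genes (7 after quantile normalization) with a median of -0.10, led by PRPF4 and PRPF6 of the U4/U6 and U5 snRNPs (-0.18 and -0.13). The SNRNP-named proteins were below in 5 of 6 (4 after quantile normalization), with a median of -0.07. The list of minor spliceosome proteins, which process a rare class of introns, was below in 4 of 5, with a median of -0.19. It was led by SNRNP48 (-0.23) and ZCRB1 (-0.20). The exon junction complex was below in 5 of 8 (4 after quantile normalization), near the 59.8% of all expressed genes, with a median of -0.06. EIF4A3 and RBM8A of its core differed by -0.21 and -0.20.

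Regulatory factors showed no common direction as deposited. The 30 expressed other splicing regulators divided into 15 below and 15 above, where 59.8% of all expressed genes were below, with a median of -0.0045. After quantile normalization 8 of the 30 were below, with a median of 0.05, and after centring on the median 10 were, with a median of 0.03. Their largest differences as deposited were those of MBNL2 and MBNL1, regulators of tissue-specific exons, at 0.20 and 0.19. The SR protein kinases had a median of 0.02 over 4 expressed genes, with SRPK1 at -0.09 and SRPK2 at 0.08. Only 1 of the 4 was below the control, as deposited and after either centring or quantile normalization. The factors of the 3′ splice site and branch point had a median of 0.0070 over 9 genes, with PHF5A lowest and SUGP1 highest (0.14). Of these 9 genes, 4 were below the control as deposited and 3 after either centring or quantile normalization. The nonsense-mediated decay genes had a median of -0.08 over 7 genes, with 4 below, near the 59.8% of all expressed genes. UPF2 and SMG8 differed by -0.25 each.

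**Figure D4:**
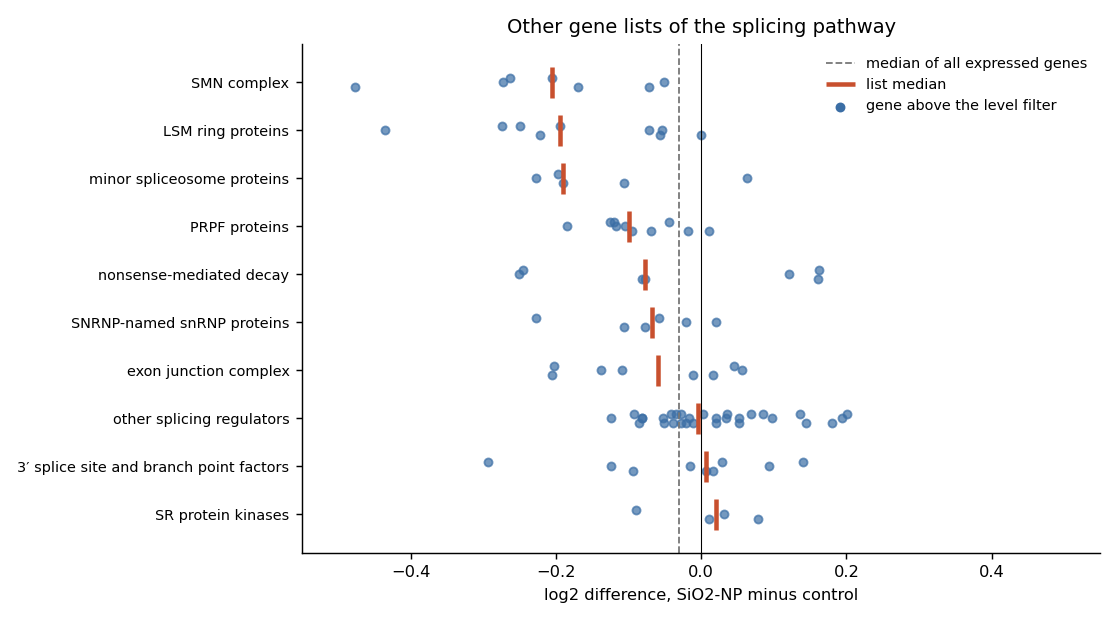
Log2 difference (SiO2-NP minus control) of the expressed genes of 10 other splicing lists, with 1 blue point a gene, the list median as a red bar and the median of all expressed genes (-0.03) as a dashed line. The medians of the SMN complex, the LSM proteins and the minor spliceosome proteins lie lowest, at -0.21, -0.20 and -0.19, and the regulators straddle zero.

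The snRNAs themselves, the RNA parts of the snRNPs, were looked up after the values of the protein genes had been seen, as all 20 single-symbol genes that RefSeq classes as snRNA. Of these, 19 were below the control, where 47.6% of all named genes were, with a median difference of -0.38, but only 7 passed the level filter. Those 7 were all below, where 59.8% of expressed genes were, with a median of -0.30. They were also all below after either centring, which leaves about as many expressed genes below as above, and after quantile normalization, where 46.4% were. RNU4-1, a U4 gene, read 10.19 in the SiO2-NP array and 10.67 in the control array, 1.39-fold lower. RNU5E-1, a U5 gene, read 12.09 in the SiO2-NP array and 12.46 in the control array, 1.29-fold lower. RNU2-1, the U2 gene with 11 probes, read 13.22 in the SiO2-NP array and 13.47 in the control array, 1.19-fold lower.

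The larger snRNA differences came from dim probes. RNU5D-1 read 5.32 in the SiO2-NP array and 6.93 in the control array, and RNU5B-1 read 6.06 in the SiO2-NP array and 7.34 in the control array, differences of -1.61 and -1.28. The exception to the direction as deposited was RNU6ATAC of the minor spliceosome, at 0.04. It was under the level filter, and all 20 genes were below after centring on a running median. RNU4ATAC, RNU11 and RNU12, also of the minor spliceosome, differed by -0.40, -0.18 and -0.05, with RNU12 under the filter. Most snRNA genes belong to families of similar copies, so 1 probe may read several of them.

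**Figure D5:**
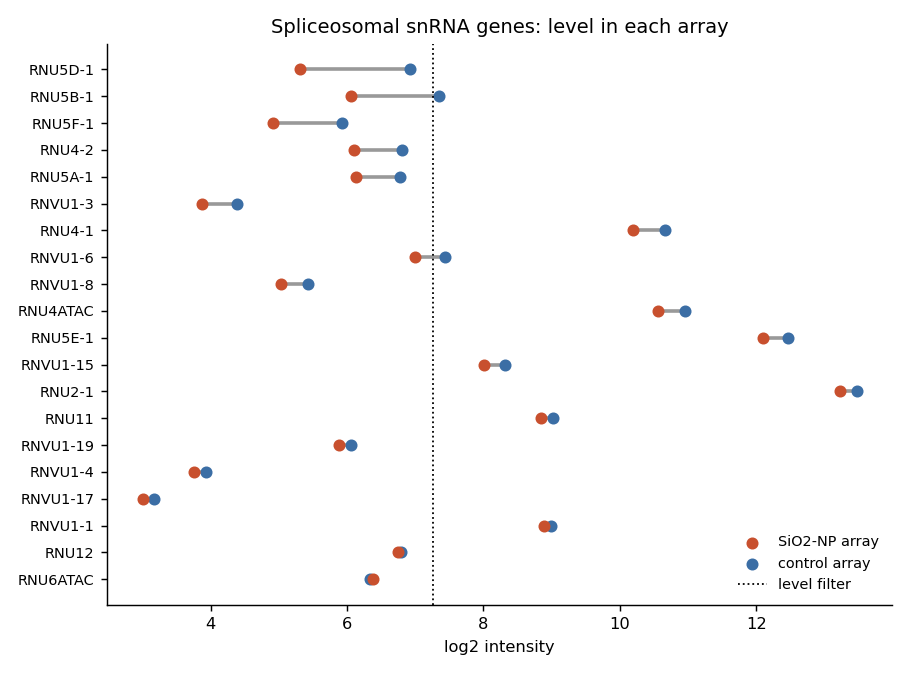
Log2 intensity of 20 snRNA genes in the SiO2-NP array (red) and the control array (blue), joined by a grey bar and sorted by difference, with the level filter of 7.26 as a dotted line. The SiO2-NP point lies left of the control point in 19 of the 20 genes, and the longest bars, RNU5D-1 and RNU5B-1, lie left of or across the filter.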

How the data were processed

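The deposited table holds 1 log2 intensity per probe (transcript cluster) for 2 Affymetrix arrays, 33297 probes each, with values from 2.08 to 14.4. The log2 scale was read from the values. Per the submitters' processing notes, the authors used RMA and MAS5; which of them made these values is not given in the sources used here, nor is the genome build. RMA-type scaling would hide a shift shared by most transcripts. Precision is limited by the number of arrays, and read depth does not apply. Probes with exactly 1 symbol in the platform annotation (19460) were averaged per gene. Every splicing factor could be named; of the other lists, the 2 expressed genes with the largest absolute difference were, plus genes a result turned on. The members and lists were chosen with earlier results of these data known. With 1 array a group no test was run; thresholds were 1.5-fold and 1.2-fold. Steps were run on simulated data with preset differences and no added noise, which checks the arithmetic and not how reliable the differences are. Alternatives are given in the closing section. Computations ran in pandas 2.3.3 and NumPy 2.4.6 under Python 3.11.15, with plots from matplotlib 3.10.9.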

Additional observations from a re-analysis of the deposited data

How the results depend on the processing

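Of 129 recomputed counts and medians, 117 stayed within 1.5 times (counts) or 0.05 on the log2 scale (medians). Without the level filter 6 splicing factors were lower by 1.2-fold and the snRNP median was -0.20. With a filter at the 75th percentile, which leaves out SNRPG, SNRPF and SNRPE, 1 was lower by 1.2-fold and the snRNP median was -0.088. Leaving out SNRPG and SNRPE, an alternative chosen after seeing the data, gave -0.10. Quantile normalization gave a median over all splicing factors of 0.011 with 21 below the control, an hnRNP median of 0.0067 with 7 below, and an SF3A and SF3B median of 0.019 with 2 below, where 46.4% of all genes were below. Centring on a running median left 4 of the 9 SF3A and SF3B genes below. The median difference of all expressed genes, -0.03, is as large as many of these differences. With the probe of highest level in place of the mean, SNRPG was 1.78-fold lower and 1 splicing factor passed 1.5-fold. No splicing factor passed 2-fold. Of 265 recomputed gene differences, 27 moved by over 0.05; the largest move was that of SNRPG. Pseudocounts were not needed on a log2 table. No paired analysis was possible because there was 1 array a group, so leaving out a replicate was not possible either. Small differences cannot be told from variation between cultures or arrays.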

Other observations

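Probes annotated with several symbols were left out of every gene value. Of 20 such probes that list at least 1 symbol of the 4 families, 17 were below the control, where 47.0% of all 1754 probes with several symbols were. The 12 that list an HNRNP symbol differed by -0.26 to 0.12, and the 8 that list SNRPN, most of them shared with clusters of small nucleolar RNAs, differed by -0.54 to 0.02. They are given without a gene name.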
